A study of Mus musculus with 4 samples.

Results

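The 34 genes described here are the tumour suppressor p53 (Trp53), the proteins that hold it in check, genes that p53 is known to switch on, and CDK inhibitors. They were chosen by gene symbol from 56953 genes in the table, and each of the 34 symbols matched 1 row. RNA was measured in skin labelled as full thickness from the back of wild-type C57BL/6J mice. The treated group received topical NEDD8i at 10 µM for 3 days, and the control group received topical DMSO, the solvent, for the same time. NEDD8i is known here only by that label, which refers to the ubiquitin-like protein NEDD8. Both groups shared strain and genotype, each had 2 libraries, and age and sex were not given in the sources used here. The labels do not say whether the 2 libraries of a group came from separate mice, so the p-values measure a spread that may be technical alone.

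p53 is a transcription factor that cells keep at low protein levels and stabilise after DNA damage and other stresses. Mdm2 is the ubiquitin ligase that marks p53 for destruction and is itself a p53 target, and Mdm4 is its partner that blocks p53 activity. The CDK inhibitors bind the cyclin-dependent kinases that drive the cell cycle: Cdkn1a (p21), Cdkn1b (p27) and Cdkn1c (p57) form the Cip/Kip family, and Cdkn2a and Cdkn2b belong to the Ink4 family. NEDD8 is attached to cullins, the scaffolds of a large class of ubiquitin ligases that degrade p21 and p27 among many proteins, and Mdm2 can attach NEDD8 to p53. Much of this control acts on protein, whereas the libraries here count RNA.

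Several of these genes are classical p53 targets, and 3 stretches of sequence before an annotated start are shown with their matches to the p53 consensus. Windows of 250 bases before an annotated start came from RefSeq on GRCm38.p6, a build other than that of the count table. They were at hand for 25 of the 34 genes, as 34 windows, and each was searched for the 10-base consensus half-site of p53. That consensus reads the same on both strands, so 1 search covered both. A half-site was present in 9 of the 34 windows (26.5%), in Aen, Bax, Ccng1, Cdkn1a, Ei24, Mdm2, Polk, Sesn1 and Trp53, against 7.13% of all 32851 windows. A pair of half-sites at most 13 bases apart, the form to which p53 is known to bind, was present in 0.0639% of all windows, and among these genes in the upstream window of Cdkn1a alone. Capitals mark the half-sites, and all sequences run 5′ to 3′ on the strand of the gene.
Cdkn1a, upstream start, chr17:29090729-29090978, plus strand: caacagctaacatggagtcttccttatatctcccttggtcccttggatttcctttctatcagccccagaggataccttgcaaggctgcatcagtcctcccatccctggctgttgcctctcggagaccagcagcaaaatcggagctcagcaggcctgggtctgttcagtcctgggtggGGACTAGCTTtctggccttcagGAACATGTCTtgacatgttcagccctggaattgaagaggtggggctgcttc
Ccng1, chr11:40755287-40755536, minus strand: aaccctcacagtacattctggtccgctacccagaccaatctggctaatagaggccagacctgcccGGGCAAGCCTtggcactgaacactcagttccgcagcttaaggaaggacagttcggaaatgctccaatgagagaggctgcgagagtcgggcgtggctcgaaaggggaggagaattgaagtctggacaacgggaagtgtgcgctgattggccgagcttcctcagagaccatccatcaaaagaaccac
Mdm2, chr10:117710759-117711008, minus strand: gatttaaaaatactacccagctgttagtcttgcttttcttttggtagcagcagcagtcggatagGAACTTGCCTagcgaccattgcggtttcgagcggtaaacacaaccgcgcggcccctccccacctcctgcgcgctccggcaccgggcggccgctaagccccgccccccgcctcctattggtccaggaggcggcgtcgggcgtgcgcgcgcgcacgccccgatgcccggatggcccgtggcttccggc
The half-sites of Cdkn1a begin 73 and 51 bases before the start, with 12 bases between them, and this start lies 2790 bases before the other annotated one, whose window held no match. The half-site of Ccng1 begins 185 bases and that of Mdm2 186 bases before the start. Only exact matches to the consensus were marked, and sequence outside these windows was not searched. In Cdkn1a the bases directly after the downstream half-site, tgacatgttc, miss the consensus by their leading t alone and were left in lower case. The marked pair and its spacing therefore need not be those of a bound site. A match describes the letters of the window, and binding was not measured.

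Library totals ran from 8833217 to 8856572 counts in the NEDD8i libraries and from 5639791 to 5955627 in the DMSO libraries, of which 3379890 to 3654442 and 2287839 to 2824291 lay outside 3 ribosomal RNA genes. The 34 genes held 14389 and 14619 counts in NEDD8i replicates 1 and 2, and 10219 and 8328 in DMSO replicates 1 and 2. Levels below are CPM, read counts scaled to library size by the TMM method. DMSO replicate 1 stood apart by its hair RNA: 10 markers of hair shaft and inner root sheath took 0.103% and 0.197% of the counts outside ribosomal RNA in NEDD8i replicates 1 and 2, against 1.59% and 0.188% in DMSO replicates 1 and 2. Outside DMSO replicate 1 the largest part came from Gata3, with 3560 and 3417 counts in NEDD8i and 4212 and 4160 in DMSO. Tchh had 115 and 2158 counts in NEDD8i against 25617 and 83 in DMSO, so NEDD8i replicate 2 also held hair RNA. By CPM, all but Gata3 and Dlx3 were higher in NEDD8i replicate 2 than in NEDD8i replicate 1 and DMSO replicate 2. The 6 melanocyte markers were highest in DMSO replicate 1, at 0.0132% and 0.0151% in NEDD8i against 0.0892% and 0.0139% in DMSO libraries. Basal keratinocyte markers took 1.1% and 1.06% in NEDD8i and 0.735% and 1.36% in DMSO. Other marker lists held genes for which both NEDD8i libraries lay on the same side of both DMSO libraries. Of all tested genes, 25% had both NEDD8i libraries above both DMSO libraries and 22.9% had them below. The 8 neutrophil markers took 0.028% and 0.0209% in NEDD8i against 0.00439% and 0.00494% in DMSO, with Camp, Ngp, Ltf and Ly6g at 0 in all libraries, and S100a8, which keratinocytes can also express, was called higher (log2 fold change 2.28, adjusted p = 0.0347 by edgeR). The 6 suprabasal keratinocyte markers took 0.829% and 0.787% in NEDD8i against 0.98% and 1.68% in DMSO. Of these, 2 were called lower, Lor (-3.05, adjusted p = 0.0377 by edgeR) and Flg2 (-3.69, adjusted p = 0.0128 by edgeR). Ivl went the other way, at 187 and 273 CPM in NEDD8i against 160 and 135 CPM in DMSO (0.64, adjusted p = 0.366 by edgeR). Krt10 was lower in both NEDD8i libraries than in both DMSO libraries, and the groups overlapped for Krt1 and Dsg1a. The 8 macrophage and Langerhans cell markers took 0.023% and 0.0191% in NEDD8i against 0.0171% and 0.00975% in DMSO. Of 5 tested 0 were called, and the groups overlapped for 2. Their log2 fold changes ran from -0.22 to 1.57 (Cd207), with C1qa at 1.39 and a median of 0.49. The 7 fibroblast markers had 294 and 607 counts in NEDD8i against 390 and 39 in DMSO libraries, and Dcn gave 345 of the 390. Of 5 fibroblast markers tested, 4 had both NEDD8i libraries above both DMSO libraries, against 25% of all tested genes. The median log2 fold change of the 5 was 2.35, and Dpt was called higher (9.78-fold, adjusted p = 0.0446 by edgeR). The part of these differences in the values of the 34 genes was not tested. The 6 endothelial markers had 20 and 11 counts in NEDD8i against 12 and 3 in DMSO libraries, with Cdh5 at 0 in all 4, and the extraction text speaks of cells, so the layers sampled are not certain. In a tissue sample, fewer cells of a type and less RNA per cell cannot be told apart.

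None of these p53 pathway genes and CDK inhibitors passed the threshold after NEDD8i. Of the 34 genes 29 had enough counts to be tested, and 0 were higher and 0 lower after Benjamini-Hochberg adjustment at 0.05 over all 11388 genes in the quasi-likelihood test of edgeR, which called 0.782% of them (0.667% higher and 0.114% lower). DESeq2 called 0 of 28 (3.74% of all genes) and limma-voom 0 of 29 (0.562% of all genes). At an unadjusted p under 0.05 there were 3 of 29 genes (10.3%), against 16.5% of all tested genes. All 3 were higher after NEDD8i, where 8.62% of all tested genes were higher and 7.86% lower at this level. These were Pmaip1, Phlda3 and Ccng1. Both NEDD8i libraries lay above both DMSO libraries for 9 genes (31%; 25% of all tested genes) and below them for 4 (13.8%; 22.9% of all tested genes), and the groups overlapped for 16. The log2 fold change was positive for 17 of the 29 genes and for 49.9% of all tested genes. Its median was 0.17 over the 29 genes and 0 over all tested genes. Over all genes the count of 89 calls depended on the libraries kept: it was 44 and 46 (0.368% and 0.387%) without NEDD8i replicates 1 and 2 in turn, and 1285 and 1358 (10.4% and 10.7%) without DMSO replicates 1 and 2 in turn. In such fits 1 group has a single library, which is assumed to vary like the other group, so their calls show only how a result depends on a library. Of the 34 genes, 2 of 32 tested were called without DMSO replicate 1 and 2 of 31 without DMSO replicate 2, below the shares of all genes called in those fits. Without DMSO replicate 1 the test called Pmaip1 higher and Xpc lower (log2 fold change -1.05, adjusted p = 0.0418 by edgeR), and without DMSO replicate 2 it called Pmaip1 higher and Bbc3 lower (-1.23, adjusted p = 0.034 by edgeR).

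**Figure D1:**
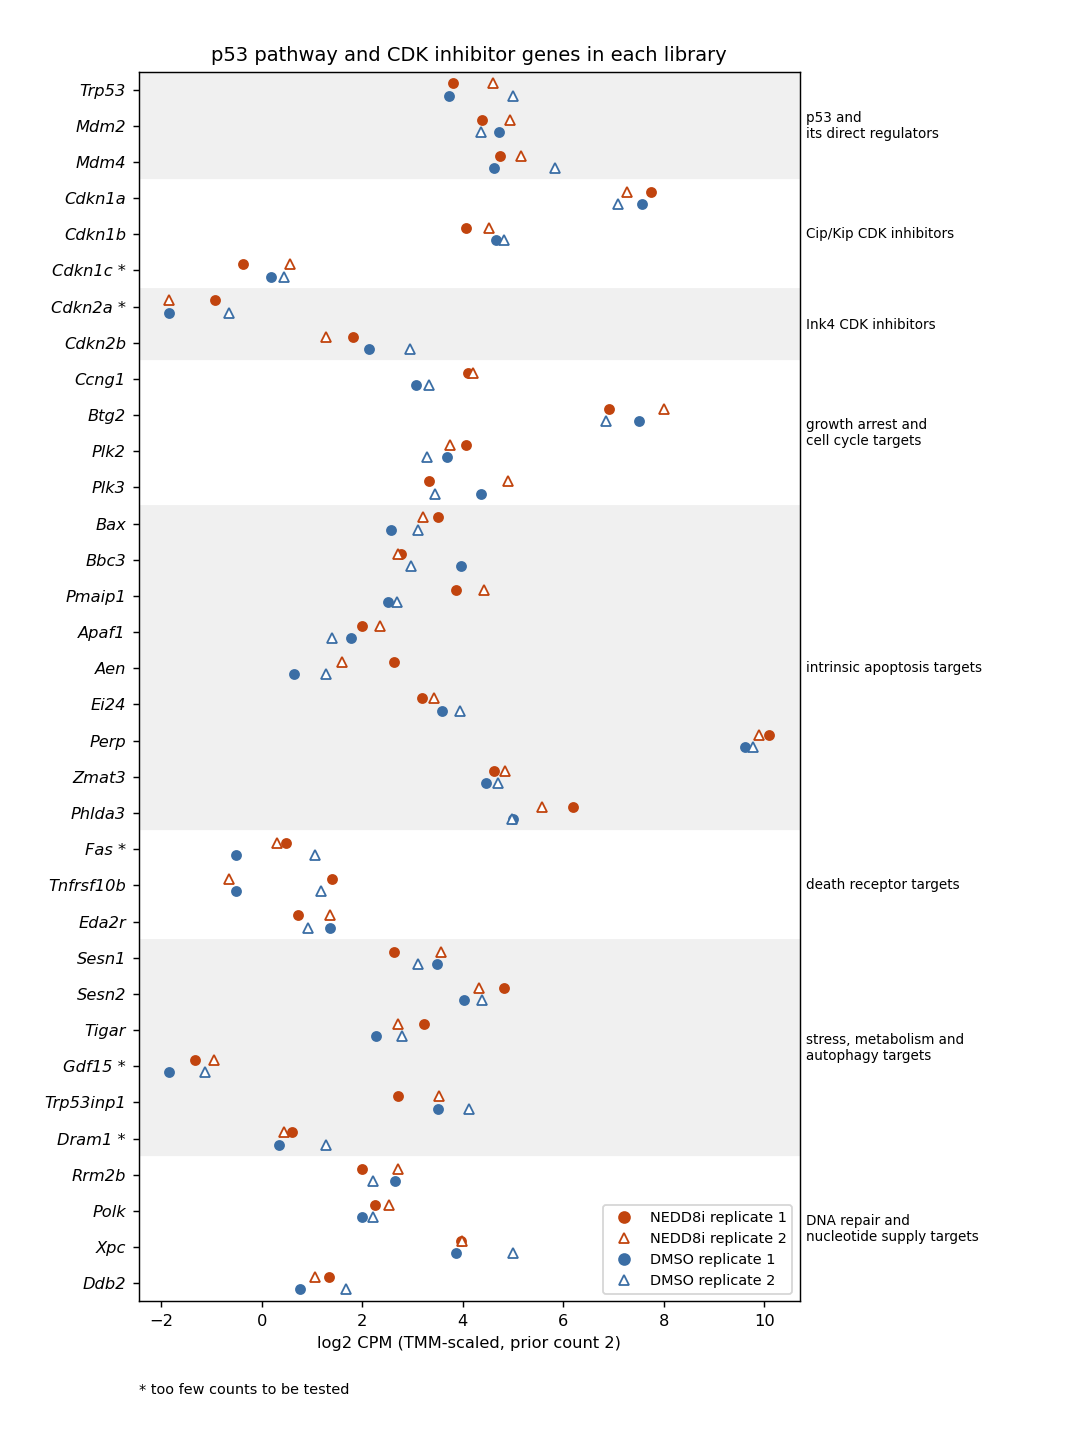
Level of all 34 genes in each library, as log2 CPM with a prior count of 2, grouped by role, with NEDD8i above DMSO in each row. The groups overlap for 16 of the 29 tested genes, and 5 genes marked with an asterisk had too few counts to be tested.

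p53 itself and its direct regulators gave overlapping libraries. Trp53 had 13.8 and 23.9 CPM in NEDD8i replicates 1 and 2, against 13 and 31.7 CPM in DMSO replicates 1 and 2. Both replicates numbered 2 were high and both numbered 1 low, so the groups covered the same range. Its log2 fold change was -0.24 (SE 0.46, 95% interval -1.29 to 0.81, adjusted p = 0.851 by edgeR), and it was positive without NEDD8i replicate 1 (0.11) and without DMSO replicate 2 (0.55). Mdm2 had 20.6 and 30.4 CPM after NEDD8i and 26 and 20.3 CPM in DMSO, with the DMSO values inside or just under the NEDD8i range. Its log2 fold change was 0.14 (SE 0.33, 95% interval -0.61 to 0.89, adjusted p = 0.881 by edgeR), and it was -0.18 when NEDD8i replicate 2 was left out, -0.01 when DMSO replicate 2 was, and -0.09 with library totals without TMM. Mdm4 stood at 26.6 and 35.3 CPM in NEDD8i libraries against 24.3 and 57 CPM in DMSO libraries, where DMSO replicate 2 was the highest by far. Its log2 fold change of -0.39 (SE 0.41, adjusted p = 0.696 by edgeR) was 0.37 without that library.

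Among the Cip/Kip inhibitors, the p21 gene Cdkn1a (ENSMUSG00000023067.15, chromosome 17, 29309953 to 29319701, plus strand, taken to be GRCm39) was well covered, with 1727 and 1279 counts in NEDD8i and 1331 and 751 counts in DMSO libraries. It averaged 184 ± 43 CPM after NEDD8i and 163 ± 38.3 CPM in DMSO (SD, n = 2 each), and the libraries of the groups alternated in rank. The log2 fold change was 0.17 (SE 0.33, 95% interval -0.57 to 0.92, adjusted p = 0.848 by edgeR). It turned to -0.07 without NEDD8i replicate 1, to -0.03 without DMSO replicate 2 and to -0.07 with library totals without TMM. The p27 gene Cdkn1b had 16.4 and 22.8 CPM in NEDD8i libraries, against 25 and 28.3 CPM in DMSO libraries. Both NEDD8i values lay below both DMSO values, and the difference did not pass (log2 fold change -0.44, SE 0.32, 95% interval -1.16 to 0.28, adjusted p = 0.546 by edgeR). Cdkn1c, which encodes p57, had 4 and 10 counts in NEDD8i against 6 and 6 in DMSO, too few to be tested.

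The Ink4 genes of this set, Cdkn2a and Cdkn2b, were scarce. Cdkn2b, which encodes p15, an inhibitor of CDK4 and CDK6, had 26 and 18 counts in NEDD8i libraries against 29 and 41 in DMSO libraries, or 3.23 and 2.16 CPM against 4.14 and 7.43 CPM. Both NEDD8i values were under both DMSO values, and its log2 fold change was the lowest of the 29 genes, at -1.09 (SE 0.54, 95% interval -2.31 to 0.13, adjusted p = 0.362 by edgeR). With each library left out in turn it ran from -1.47 to -0.6. Cdkn2a, whose locus encodes both p16 and p19Arf, had 2 and 0 counts in NEDD8i and 0 and 2 in DMSO. Its transcripts share their 3′ end, so a 3′ tag does not separate them. A count of 0 allows up to 0.36 CPM in NEDD8i replicate 2 and up to 0.429 CPM in DMSO replicate 1, taking a floor of 3 counts in a library.

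The genes by which p53 is known to start apoptosis gave the highest values of the set and also some of the lowest. Of 9 tested, 0 passed, 7 lay above and 2 below 0 (median log2 fold change 0.51), and 2 had an unadjusted p under 0.05. Pmaip1, which encodes Noxa, a BH3-only protein that neutralises the survival protein Mcl1, had the highest fold change. It had 115 and 177 counts in NEDD8i libraries and 38 and 34 in DMSO libraries, which is 14.3 and 21.3 CPM against 5.43 and 6.16 CPM. Both treated libraries stood well above both controls, and the group means were 17.8 ± 4.94 and 5.79 ± 0.514 CPM (SD, n = 2 each). The change was 3.07-fold (log2 fold change 1.62, SE 0.38, 95% interval 0.75 to 2.49) and missed the threshold with an adjusted p of 0.0935 by edgeR. It lay higher than 97.1% of the log2 fold changes of all tested genes. Pmaip1 (ENSMUSG00000024521.9) lies on chromosome 18. Its adjusted p was 0.0569 with DESeq2, 0.105 with limma-voom and 0.144 with library totals without TMM, and it passed without a filter on low counts (adjusted p = 0.00706 by edgeR), where 2.97% of all genes did. It also passed without DMSO replicate 1 (log2 fold change 1.52, adjusted p = 0.013 by edgeR) and without DMSO replicate 2 (1.73, adjusted p = 0.00293 by edgeR), and not without NEDD8i replicate 1 (1.89, adjusted p = 0.289 by edgeR) or NEDD8i replicate 2 (1.29, adjusted p = 0.642 by edgeR).

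Phlda3, a small PH-domain protein that restrains the kinase Akt (ENSMUSG00000041801.6, chromosome 1, 135693857 to 135696874, plus strand, on the same build), had 72.9 and 47.6 CPM in NEDD8i libraries against 31.7 and 31 CPM in DMSO libraries. The DMSO values were nearly equal and both NEDD8i values stood above them. The change was 1.92-fold (log2 fold change 0.94, SE 0.31, adjusted p = 0.182 by edgeR). Aen, an apoptosis-enhancing nuclease, had 5.96 and 2.76 CPM after NEDD8i and 1.29 and 2.17 CPM in DMSO, from at most 48 counts in a library (log2 fold change 1.34, SE 0.64, adjusted p = 0.35 by edgeR). The log2 fold change was 0.7 when NEDD8i replicate 1 was left out. Bax, the pore-forming protein of the outer mitochondrial membrane, had 11.1 and 8.89 CPM in NEDD8i libraries against 5.72 and 8.33 CPM in DMSO libraries (log2 fold change 0.51, SE 0.4, adjusted p = 0.586 by edgeR). Apaf1, the scaffold of the apoptosome, had 3.73 and 4.81 CPM after NEDD8i against 3.14 and 2.35 CPM in DMSO (0.62, adjusted p = 0.616 by edgeR). For Aen, Bax and Apaf1 both treated libraries were above both controls, the nearest pair of Bax by little.

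Perp, a desmosome-associated membrane protein that stratified epithelia need for adhesion, had by far the most counts of the set, with 8852 and 7943 in NEDD8i libraries and 5503 and 4850 in DMSO libraries. It stood at 1099 and 954 CPM after NEDD8i, against 786 and 878 CPM in DMSO. The log2 fold change was 0.3 (SE 0.31, 95% interval -0.41 to 1.02, adjusted p = 0.693 by edgeR), which leaves room for a change up to about the size seen for Phlda3. Zmat3, an RNA-binding zinc finger protein, had a log2 fold change of 0.16 (SE 0.3, adjusted p = 0.85 by edgeR), which was -0.05 with library totals without TMM. On the lower side, Bbc3, which encodes the BH3-only protein Puma, had 6.58 and 6.25 CPM in NEDD8i libraries against 15.3 and 7.61 CPM in DMSO libraries. The highest value was that of DMSO replicate 1, in which the 10 hair markers took 1.59% of counts outside ribosomal RNA. The log2 fold change of Bbc3 was -0.84 (SE 0.44, adjusted p = 0.392 by edgeR) and only -0.26 without that library, while the part of hair RNA in it was not tested. Ei24, a membrane protein of the endoplasmic reticulum, had 8.82 and 10.5 CPM after NEDD8i, below 11.7 and 15.2 CPM in DMSO (-0.48, SE 0.36, adjusted p = 0.565 by edgeR). The transcripts of Noxa and Puma thus had log2 fold changes of opposite sign, and the difference between them was not tested.

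**Figure D2:**
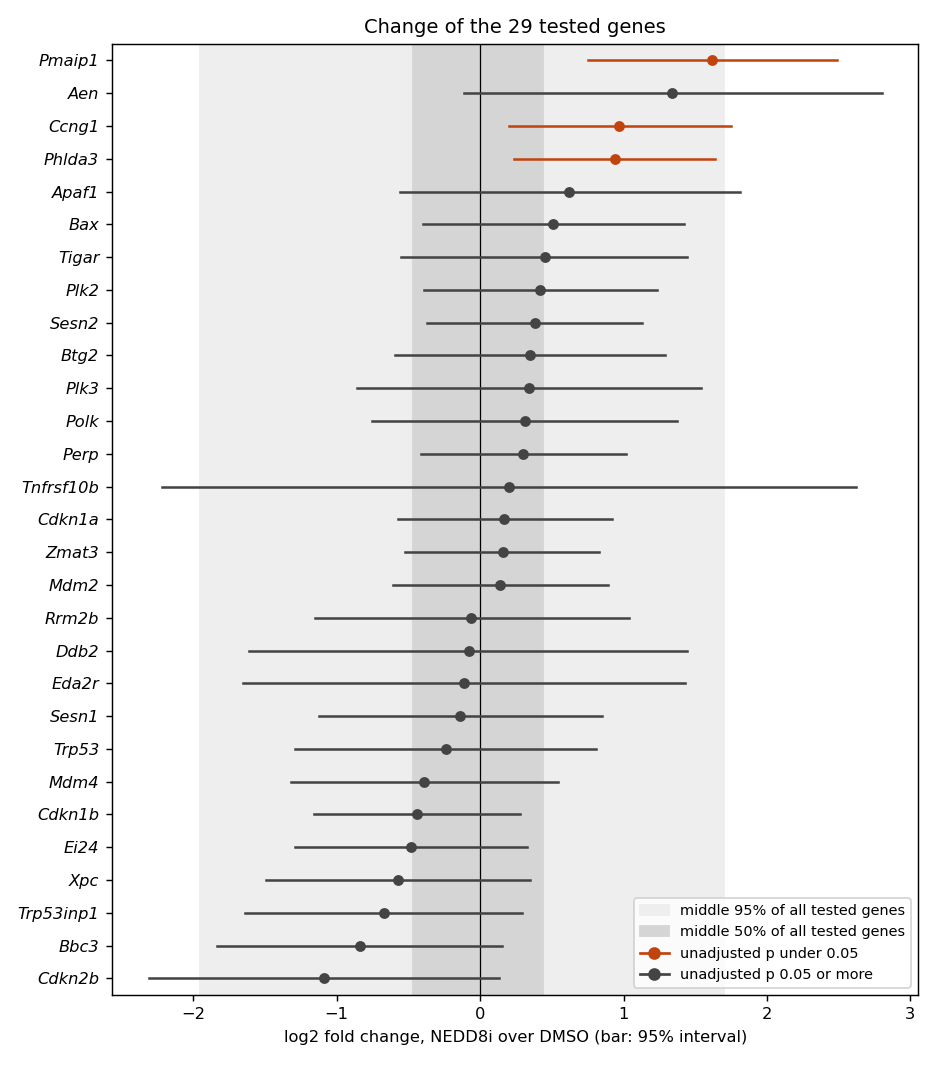
Log2 fold change of NEDD8i over DMSO for the 29 tested genes with 95% intervals, over shaded bands for the middle 50% and 95% of all tested genes. The intervals of Pmaip1, Ccng1 and Phlda3 lie above 0, and none of the 29 genes had an adjusted p under 0.05.

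The 4 growth arrest genes all had positive log2 fold changes with all 4 libraries, and 0 of 4 passed (1 at an unadjusted p under 0.05). Ccng1, which encodes cyclin G1, a p53 target that brings a phosphatase to Mdm2 (ENSMUSG00000020326.8, chromosome 11, 40639379 to 40646138, minus strand, coordinates on GRCm39 as above), had 17 and 18.1 CPM in NEDD8i libraries against 8.15 and 9.78 CPM in DMSO libraries. Its replicates were close in both groups and the groups stood well apart. The change was 1.96-fold (log2 fold change 0.97, SE 0.34, 95% interval 0.2 to 1.75) and did not pass (adjusted p = 0.205 by edgeR). With 1 library left out at a time it ran from 0.83 to 1.13. Plk2, a polo-like kinase, had 16.4 and 13.1 CPM after NEDD8i against 12.6 and 9.42 CPM in DMSO (0.42, SE 0.36, adjusted p = 0.622 by edgeR).

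Btg2, an antiproliferative co-regulator of mRNA decay, and Plk3, another polo-like kinase, are also immediate early genes, and their libraries did not sort by treatment. Btg2 had 120 and 258 CPM in NEDD8i replicates 1 and 2 against 181 and 115 CPM in DMSO replicates 1 and 2. Plk3 had 9.81 and 29.6 CPM in NEDD8i libraries against 20.3 and 10.7 CPM in DMSO libraries. Both genes were high in NEDD8i replicate 2 and DMSO replicate 1. A list of 10 other immediate early genes, added after these values were seen, summed to 2908 and 5357 CPM in NEDD8i replicates 1 and 2 and to 4525 and 3568 CPM in DMSO replicates 1 and 2, and 7 of the 10 were higher in NEDD8i replicate 2 than 1 and in DMSO replicate 1 than 2. None of the 10 passed in edgeR (median log2 fold change -0.17), and the part of this pattern in the values of Btg2 and Plk3 was not tested. Without NEDD8i replicate 2 the log2 fold changes were -0.33 for Btg2 and -0.68 for Plk3, against 0.35 (adjusted p = 0.738 by edgeR) and 0.34 (adjusted p = 0.809 by edgeR) with all 4 libraries.

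**Figure D3:**
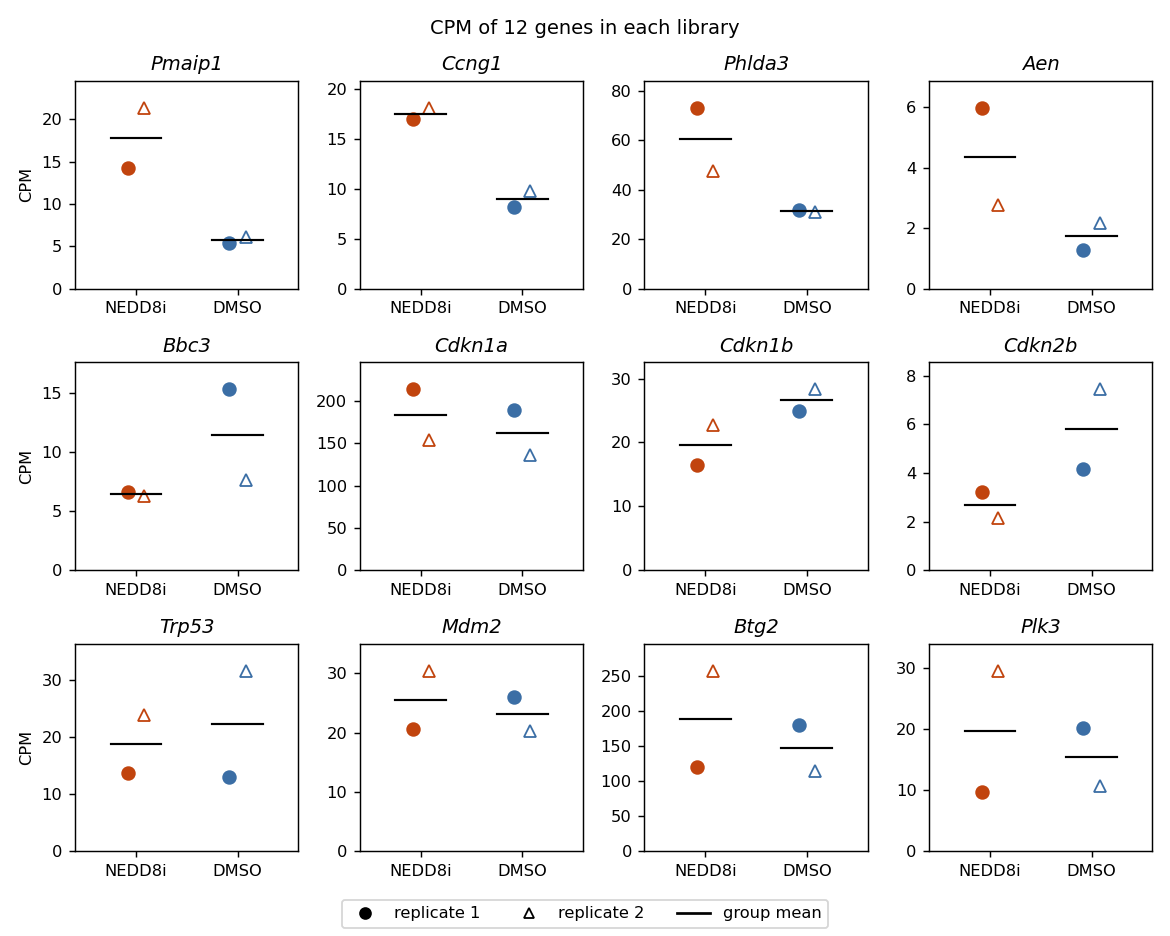
CPM of 12 genes in each library, with NEDD8i left of DMSO, points for libraries and a line for the group mean, each axis starting at 0. Pmaip1, Ccng1, Phlda3 and Aen separate the groups upward and Bbc3, Cdkn1b and Cdkn2b downward, while Cdkn1a, Trp53, Mdm2, Btg2 and Plk3 overlap.

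The death receptors had few counts. Fas had 9 and 8 counts in NEDD8i libraries against 3 and 10 in DMSO libraries and was not tested. Tnfrsf10b, the mouse TRAIL receptor, had 19 and 3 counts in NEDD8i against 3 and 11 in DMSO, so that its log2 fold change of 0.2 (SE 1.07, adjusted p = 0.947 by edgeR) ran from -1.66 to 1.64 as single libraries were left out. Eda2r, a receptor for ectodysplasin A2, had 11 and 19 counts in NEDD8i against 16 and 9 in DMSO (-0.11, SE 0.68, adjusted p = 0.957 by edgeR). The libraries of both tested receptors overlapped, and the 95% interval of Tnfrsf10b ran from -2.22 to 2.62.

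Stress and metabolism genes split evenly, with 2 positive and 2 negative log2 fold changes among 4 tested, all 4 with overlapping libraries and 0 past the threshold (0 at an unadjusted p under 0.05). The sestrin genes Sesn1 and Sesn2, whose products restrain mTORC1, had log2 fold changes of -0.14 (SE 0.44, adjusted p = 0.914 by edgeR) and 0.38 (SE 0.33, adjusted p = 0.634 by edgeR). Sesn1 was 0.28 without NEDD8i replicate 1 and 0.06 without DMSO replicate 1. Tigar, a fructose bisphosphatase that lowers glycolysis, had 9.07 and 6.25 CPM in NEDD8i against 4.57 and 6.7 CPM in DMSO (0.45, adjusted p = 0.673 by edgeR). Trp53inp1, which promotes p53 activity and autophagy, had 6.33 and 11.3 CPM in NEDD8i against 11 and 17.2 CPM in DMSO (-0.67, SE 0.42, adjusted p = 0.487 by edgeR). The secreted stress ligand Gdf15 had 1 and 2 counts in NEDD8i against 0 and 1 in DMSO, and the lysosomal autophagy gene Dram1 had 10 and 9 against 7 and 12, both too few to be tested.

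Among the 4 repair genes 0 passed (0 at an unadjusted p under 0.05), and the groups separated for Polk alone. Of all tested genes, 25% had both NEDD8i libraries above both DMSO libraries. Xpc, which recognises lesions in nucleotide excision repair, had 15.3 and 15.6 CPM in NEDD8i libraries against 14.3 and 31.7 CPM in DMSO libraries. Only DMSO replicate 2 differed from the rest, and the log2 fold change of -0.57 (SE 0.41, adjusted p = 0.543 by edgeR) was 0.13 without that library. Ddb2, a damage sensor of the same pathway, had 18 and 15 counts in NEDD8i against 10 and 16 in DMSO (-0.08, SE 0.67, adjusted p = 0.966 by edgeR). Rrm2b, the p53-inducible subunit of ribonucleotide reductase, had a log2 fold change of -0.06 (SE 0.48, adjusted p = 0.967 by edgeR). Polk, a translesion DNA polymerase, had 4.47 and 5.53 CPM after NEDD8i, above 3.72 and 4.35 CPM in DMSO, with a log2 fold change of 0.31 (SE 0.47, adjusted p = 0.801 by edgeR).

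Replicates of the same group differed by a median factor of 1.42 in NEDD8i and 1.4 in DMSO over the 29 tested genes. Among the genes with at least 100 counts the highest factor was 3.01 in NEDD8i, for Plk3, and 2.44 in DMSO, for Trp53. The median SE of a log2 fold change was 0.42. With each library left out in turn, 12 of the 29 genes stayed positive and 5 stayed negative, and 12 changed sign. The same counts were not made over all tested genes, so no trait of this set can be read from them. The 12 that stayed positive were Pmaip1, Aen, Ccng1, Phlda3, Apaf1, Bax, Tigar, Plk2, Sesn2, Polk, Perp and Zmat3, and the 5 that stayed negative were Cdkn1b, Cdkn2b, Bbc3, Ei24 and Trp53inp1. Of these 17, Zmat3 was negative with library totals without TMM.

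**Figure D4:**
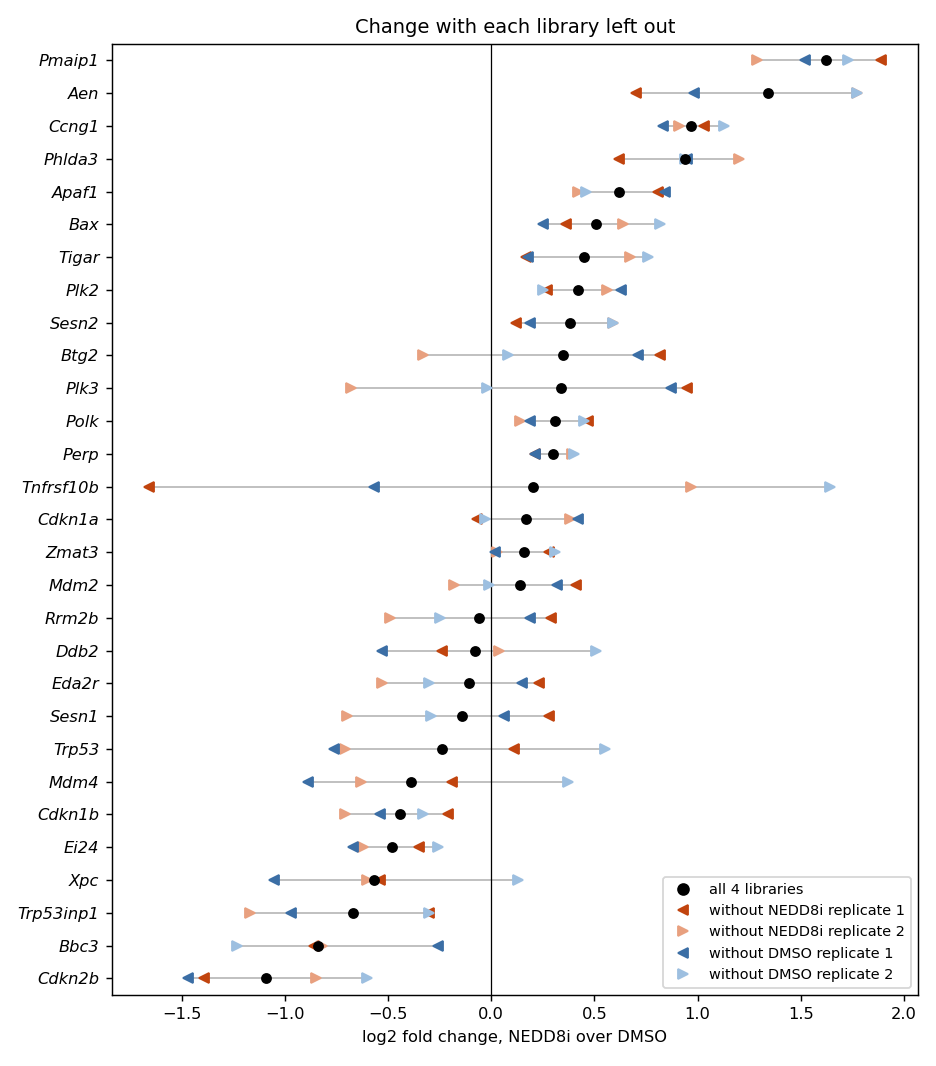
Log2 fold change of NEDD8i over DMSO for the 29 tested genes with all 4 libraries and with each library left out. The points of Pmaip1 run from 1.29 to 1.89 and those of Tnfrsf10b from -1.66 to 1.64, and 12 genes have points on both sides of 0.

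Other genes of the pathway gave 1 call. Among 23 tested of 30 other p53 targets, 1 was higher, 0 were lower and 22 did not pass (2 higher and 3 lower at an unadjusted p under 0.05, median log2 fold change 0.13). The same test called 0.782% of all tested genes, and 8.62% were higher and 7.86% lower at an unadjusted p under 0.05. This list was chosen with earlier results of these data known. The gene that rose was Tgfa, a ligand of the EGF receptor, with 35 and 38.9 CPM in NEDD8i libraries against 7.15 and 4.35 CPM in DMSO libraries (log2 fold change 2.67, SE 0.36, adjusted p = 0.0162 by edgeR). With library totals without TMM it missed the threshold (2.43, adjusted p = 0.0513 by edgeR). Sfn, named after its values were seen, encodes stratifin, a p53 target that holds back the entry into mitosis and is abundant in keratinocytes. It had 1577 and 1570 CPM in NEDD8i libraries against 740 and 699 CPM in DMSO libraries. Its replicates were nearly equal within each group, and its log2 fold change was 1.13 (SE 0.32, adjusted p = 0.134 by edgeR). Sfn passed with DESeq2 (adjusted p = 0.00354), without a filter (adjusted p = 0.0199 by edgeR), with the replicate number as a block (adjusted p = 0.0394 by edgeR; 2.5% of all genes), without DMSO replicate 1 (adjusted p = 0.0103 by edgeR) and without DMSO replicate 2 (adjusted p = 0.0343 by edgeR). It did not pass with limma-voom (adjusted p = 0.111), without NEDD8i replicate 1 (adjusted p = 0.728 by edgeR) or without NEDD8i replicate 2 (adjusted p = 0.676 by edgeR). On the lower side Fdxr, which encodes mitochondrial ferredoxin reductase, had 4 and 7 counts in NEDD8i libraries against 21 and 25 in DMSO libraries. Its log2 fold change was -2.45 (SE 0.7, adjusted p = 0.139 by edgeR). Fdxr passed the count filter through the DMSO libraries alone, where it was high, so its p-value is no support for a change. Ckap2, a spindle protein, had 5.22 and 4.57 CPM in NEDD8i against 9.58 and 11.2 CPM in DMSO (-1.08, SE 0.39, adjusted p = 0.217 by edgeR). Both NEDD8i libraries lay below both DMSO libraries for Fdxr and Ckap2, which were also named after their values were seen. Without DMSO replicate 1, 4 of 25 genes of this list were called (10.4% of all genes), and without DMSO replicate 2, 5 of 26 (10.7% of all genes). The median of the list had no stable sign: it was -0.14 with DESeq2, -0.11 with library totals without TMM, -0.11 without a filter, and -0.2 to 0.19 with each library left out.

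Of 21 tested p53 family members, kinases and stability regulators, 0 passed (1 higher and 2 lower at an unadjusted p under 0.05, 0 by DESeq2 and 0 by limma-voom), with a median of -0.11. The smallest p-values were those of the DNA damage kinases Atm, at 20.5 and 22.7 CPM in NEDD8i against 35.7 and 49.4 CPM in DMSO (log2 fold change -0.98, adjusted p = 0.165 by edgeR), and Prkdc (-1.56, adjusted p = 0.233 by edgeR). The most abundant were the ribosomal proteins Rpl11 (-0.11), which can bind Mdm2, and Rpl23 (-0.34). Among 15 tested ligase genes that act on CDK inhibitors or p53, 0 passed, with a median of 0.07. At an unadjusted p under 0.05, 0 were higher and 1 lower, and DESeq2 and limma-voom each called 0. Of all tested genes, 8.62% were higher and 7.86% lower at that level, a share to be set beside both lists. Dtl, the substrate receptor that directs p21 to a cullin ligase, had 4 and 10 counts in NEDD8i against 42 and 16 in DMSO. Its log2 fold change was -2.37 (SE 0.72, adjusted p = 0.155 by edgeR). Dtl too passed the count filter through the DMSO libraries alone, where it was high, so its p-value is no support for a change. Skp2, the receptor for p27, had a log2 fold change of -1 (adjusted p = 0.386 by edgeR). The abundant Ddb1, an adaptor of cullin ligases, stood at 0.25, and Rnf187, a RING protein, at -0.04. The median of the ligase list was -0.16 with library totals without TMM, which moved all genes by -0.22, and -0.02 without NEDD8i replicate 1, and that of the p53 family list was 0.01 without NEDD8i replicate 2. Without DMSO replicate 1, 1 of 21 genes of the p53 family list was called (10.4% of all genes), Atm as lower (-1.2, adjusted p = 0.00709 by edgeR), and 0 of 16 ligase genes. Without DMSO replicate 2, 1 of 15 ligase genes was called (10.7% of all genes), Dtl as lower (-2.77, adjusted p = 0.00798 by edgeR). In that fit 1 of 21 genes of the p53 family list was called, Trp63, the p53 relative of epidermal stem cells, as higher (1.07, adjusted p = 0.038 by edgeR). The only control in that fit was DMSO replicate 1, where hair RNA was highest, and the part of hair RNA in these calls was not tested. With all 4 libraries Trp63 had 120 and 142 CPM in NEDD8i against 63.2 and 128 CPM in DMSO, with overlapping groups (0.46, adjusted p = 0.601 by edgeR).

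The CDKs, cyclins and pocket proteins had a median of -0.37, with 21 of 24 tested genes negative, and 0 passed in edgeR. Of all tested genes, 49.9% had a positive log2 fold change. At an unadjusted p under 0.05 the list had 1 higher and 4 lower, against 8.62% and 7.86% of all tested genes. DESeq2 called 1 (3.74% of all genes) and limma-voom 0 (0.562% of all genes). Whether the list as a whole differed from all genes was not tested. Ccnd2, which encodes cyclin D2, had 238 and 190 CPM in NEDD8i against 520 and 405 CPM in DMSO (log2 fold change -1.11, SE 0.32, adjusted p = 0.139 by edgeR). It was the gene that DESeq2 called (adjusted p = 0.00939), and edgeR called it without a filter (adjusted p = 0.0433), with the replicate number as a block (adjusted p = 0.0442), without DMSO replicate 1 (adjusted p = 0.028) and without DMSO replicate 2 (adjusted p = 0.00568). It did not pass with limma-voom (adjusted p = 0.12), or with edgeR without NEDD8i replicate 1 (adjusted p = 0.724) or without NEDD8i replicate 2 (adjusted p = 0.771). E2f4, a repressor E2F, had 10.7 and 9.97 CPM in NEDD8i against 3.86 and 3.98 CPM in DMSO (1.39, adjusted p = 0.141 by edgeR), and the abundant Ccnd1 stood at -0.34 (adjusted p = 0.614 by edgeR). Without DMSO replicate 1, edgeR called 1 of 24 genes of this list (10.4% of all genes). Without DMSO replicate 2 it called 4 of 25 (10.7% of all genes), E2f4 as higher and Ccnd2, Ccnb1 and Rb1 as lower. The only control in that fit was DMSO replicate 1, where hair RNA was highest, and the part of hair RNA in these calls was not tested. Among 22 tested apoptosis regulators outside the p53 targets, 0 passed, with a median of -0.09. At an unadjusted p under 0.05, 4 were higher and 2 lower (8.62% and 7.86% of all tested genes). DESeq2 and limma-voom each called 0. Bok, a relative of Bax, had a log2 fold change of 0.91 (adjusted p = 0.159 by edgeR), Cycs, which encodes cytochrome c, one of 0.95 (adjusted p = 0.176 by edgeR), and Mcl1, the partner of Noxa, one of 0.67 (adjusted p = 0.274 by edgeR). Without DMSO replicate 1, edgeR called 3 of 23 genes of this list (10.4% of all genes), and without DMSO replicate 2 it called 1 of 23 (10.7% of all genes). The median of this list was 0.13 without DMSO replicate 2.

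**Figure D5:**
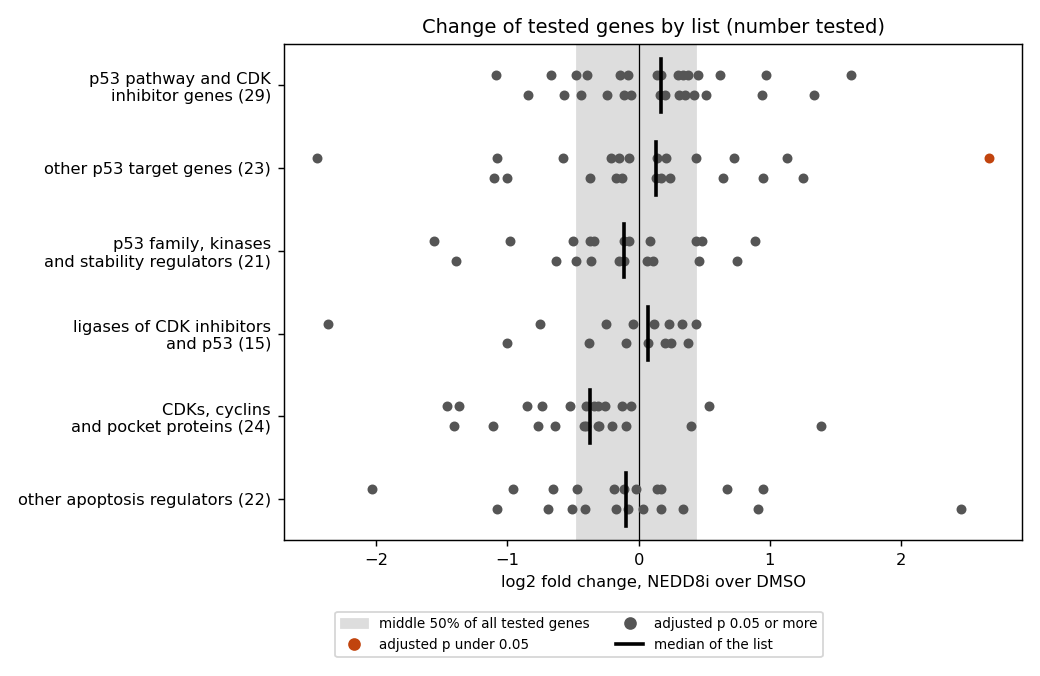
Log2 fold change of NEDD8i over DMSO for the tested genes of each list, with the median as a bar and the middle 50% of all tested genes shaded. Tgfa at 2.67 is the only point past the threshold, and the CDK and cyclin list has the lowest median, -0.37.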

How the data were processed

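RNA from 4 mouse skin samples was sequenced from its 3′ ends with the QuantSeq FWD kit, per the labels' protocols. The authors deposited raw read counts per gene with exon coordinates. Per the submitters' processing notes, STAR, featureCounts and DESeq2 were used, and their versions, strand setting and filters are not given in the sources used here. Full-thickness skin is stated, while the extraction text speaks of cells. The notes name GRCm38 and GRCm39. Only 2.7% of 52029 matched genes began where GENCODE M21 (GRCm38) places them, so gene coordinates are taken to be GRCm39. Groups and replicate numbers came from the titles, and 0 sample columns were unused.

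Counts were tested in R 4.3.3 with edgeR 4.0.16: filterByExpr (minimum count 10, minimum total 15), TMM factors of 0.912, 0.945, 1.18 and 0.982 (NEDD8i replicates 1 and 2, DMSO replicates 1 and 2), and a robust quasi-likelihood F test on group with adjusted p under 0.05. The common dispersion was 0.12. A prior count of 2 entered log2 CPM, and intervals of 95% use the F statistic and its degrees of freedom. Of the 29 genes tested, 27 were above the filter in all libraries and 0 through the NEDD8i libraries alone. No library duplicated another (chi-square per degree of freedom 24.1 to 68.5). Reads were not collapsed by molecule as far as stated, so floors cover counting error only. Whether reads shared by overlapping genes were split is not stated. Alternatives used DESeq2 1.42.0 and limma 3.58.1, and the steps were tested on simulated data. The genes, lists and tests were chosen with earlier results of these data known. All 34 genes are named, with full statistics for p53, Mdm2, Mdm4, the CDK inhibitors and genes at an unadjusted p under 0.05. From other lists the genes past the threshold are named, or else those of smallest p and highest CPM. A result of 1 gene in these lists is not reported here.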

Additional observations from a re-analysis of the deposited data

How the results depend on the processing

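Of 9 alternatives that kept all libraries, 8 called 0 of these genes, and without a filter on low counts 1 passed (Pmaip1). Calls over all genes were 392 with DESeq2, 47 with library totals without TMM, 703 without a filter and 48 without the robust option, against 89. Library totals without TMM moved the median of all tested genes by -0.22 on the log2 scale and that of the 29 genes to -0.05, and turned Cdkn1a to -0.07, Mdm2 to -0.09 and Zmat3 to -0.05. Relative to all genes the median of the 29 was 0.17 there and 0.18 in the reported fit. Limma-voom turned Ddb2 to 0.03. Leaving out the TMM factors, which were 0.912 and 0.945 in NEDD8i and 1.18 and 0.982 in DMSO libraries, lowers the log2 fold changes by construction. Why the factors differed was not tested, nor was the cause of the other changes.

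With each library left out, calls over all genes ran from 44 to 1358, calls among these genes from 0 to 2 and their median from 0.03 to 0.31. Genes that changed sign ran from -0.33 to 0.82 (Btg2), -0.07 to 0.42 (Cdkn1a), -0.53 to 0.51 (Ddb2), -0.53 to 0.23 (Eda2r), -0.18 to 0.41 (Mdm2), -0.89 to 0.37 (Mdm4), -0.68 to 0.95 (Plk3), -0.49 to 0.29 (Rrm2b), -0.7 to 0.28 (Sesn1), -1.66 to 1.64 (Tnfrsf10b), -0.76 to 0.55 (Trp53) and -1.05 to 0.13 (Xpc).

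The labels do not say that replicate numbers pair the samples. Same-numbered libraries' deviations had a correlation of -0.13, a single value with 2 libraries a group, which does not settle it. With the replicate block the calls were 285 over all genes and 0 among these, with a median of 0.16, and Sfn and Ccnd2 passed. With crossed pairs, added after seeing the data, they were 483 and 1. With 2 libraries a group, an exact permutation test over samples cannot go below p = 0.333.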
